A study of Arabidopsis thaliana with 20 samples.

Results

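Ribosome-bound messenger RNA of the pSHR line was compared with that of the p35S line in Arabidopsis thaliana root tips kept in air. The comparison rests on 4 of the 20 arrays of the study, 2 of pSHR and 2 of p35S, chosen by their titles and treatment and not by any measured value. Both lines are Col-0 plants that express an epitope-tagged ribosomal protein, FLAG-RPL18B, and they differ in the promoter that drives it. The labels describe the RNA purified from pSHR plants as vascular and that from p35S plants as polysomal RNA of the root tip. Seedlings were 7 days old, control plates stayed in air for 2 h beside plates flushed with argon, and the last 1 cm of the root was cut off. The same lines were also sampled after the 2 h of argon hypoxia, and pSCR and pWOL lines and total RNA from the p35S lysates were sampled in both treatments, each with 2 arrays. The arrays carry 22810 probe sets. Many root tips were pooled for each extract, and the labels do not say whether the plants of a line descend from 1 transformant. Amplification began from 400 pg of RNA and took 2 rounds, per the labels' protocols.

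A tagged ribosome can be pulled from a whole-tissue lysate together with the transcripts it is translating, so a promoter that is active in some cells samples the translated transcripts of those cells. SHORT-ROOT (SHR) is transcribed in the stele, the central cylinder that holds xylem, phloem, procambium and pericycle, and its protein moves outwards into the endodermis. The p35S promoter, from cauliflower mosaic virus, is active in most cell types. A transcript that is higher in pSHR than in p35S was therefore better represented on ribosomes from cells with the SHR promoter than on ribosomes from the broad sample, and the reverse holds for a lower one. Fewer cells of a type and less RNA per cell cannot be told apart in such bulk samples.

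Levels are log2 RMA values, in which 1 unit is a doubling of signal. The 20 arrays had medians from 6.41 to 6.55 and lowest values from 3.35 to 3.50. The 2 pSHR arrays correlated at r = 0.974 over all probe sets and the 2 p35S arrays at r = 0.982. The pSHR arrays leaned to different lines: array 2 correlated at 0.969 and 0.965 with the pWOL arrays, while array 1 reached 0.948 and 0.947 with them and 0.970 with pSCR array 2. The signal of the GAPDH control at its 3 prime end exceeded that at its 5 prime end by 4.35 and 4.52 log2 units in the pSHR arrays and by 3.87 and 3.16 in the p35S arrays. The 25S ribosomal RNA control read 13.86 and 13.82 in pSHR against 13.53 and 12.69 in p35S. The actin control, by contrast, overlapped, with 3 prime over 5 prime differences of 4.47 and 4.79 in pSHR and 5.01 and 4.61 in p35S. For GAPDH and 25S the 2 pSHR arrays lay above the 2 p35S arrays, and the part of RNA quality in the differences given here was not tested.

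The vascular label was set against cell type markers. Of 53 genes on the stele, xylem, phloem and pericycle lists 6 were measured. None of the 6 measured stele, phloem and pericycle genes was called higher in pSHR. Below p35S lay 5 of the 6, with a median difference of -0.44 log2 units. At an unadjusted limma p below 0.05 was 1 of the 6, against 3609 of all 22746 tested probe sets. PHV, a class III HD-ZIP transcription factor of the vascular cylinder, read 10.00 and 9.59 in pSHR and 10.29 and 10.04 in p35S (difference -0.37 ± 0.24, standard error, n = 2 a line; limma adjusted p = 0.528). LHW, a bHLH factor needed for vascular cell number, read 7.99 and 7.96 against 8.76 and 8.48 (-0.65 ± 0.30, limma adjusted p = 0.320). For both of these genes the pSHR arrays lay below the p35S arrays without passing the test. The phloem genes OPS and PEAR2 differed by 0.00 and -0.87, and the pericycle genes LBD16 and LBD29 by -0.09 and -0.51. Both phloem genes were dim: their summed signal, as log2, was 6.53 and 6.67 in pSHR and 6.84 and 7.30 in p35S. No xylem or root cap gene of the lists had a named probe set, and SHR itself was not analysed here.

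Markers of the layers outside the stele showed the opposite sign. Of 32 listed endodermis, cortex and epidermis genes 10 were measured, and all 10 were above p35S. Their median difference was 0.87, against a median of -0.01 over all 22746 tested probe sets. At an unadjusted limma p below 0.05 were 7 of the 10, against 3609 of all tested probe sets. After adjustment 1 of the 10 passed the test. That gene was AT1G09750, whose promoter marks the cortex: it read 9.40 and 9.56 in pSHR and 6.98 and 7.39 in p35S, a 4.92-fold difference (2.30 ± 0.32, limma adjusted p = 0.00382). Without p35S array 1 its adjusted p was 0.0512 at a difference of 2.09. The second cortex gene, CO2, read 5.17 and 5.01 against 4.99 and 5.07, so the 2 cortex genes did not move together. The endodermal genes ranged from 0.20 for SCL23 to 1.55 for JKD, a zinc finger partner of SHR, and the root hair expansins EXPA18 and EXPA7 differed by 1.03 and 1.65. None of these passed the test. Leaving out 1 array turned the sign of SGN1, SCL23 or CO2 among the 10, without p35S array 2 for SGN1 (-0.27) and SCL23 (-0.05), without pSHR array 1 for SGN1 (-0.12) and CO2 (-0.02), and without pSHR array 2 for SCL23 (-0.0036). Only 17 of the 94 listed markers were measured. Among these the data do not set pSHR polysomes apart by higher stele transcripts, and the line is called pSHR below. The summed signal of the 10 outer-layer markers, as log2, was 12.65 and 12.22 in the pSHR arrays and 11.83 and 11.37 in the p35S arrays, and that of the 6 stele, phloem and pericycle genes was 10.75 and 10.67 against 11.16 and 10.98. The part of these cell types in the differences of other genes was not tested.

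**Figure D1:**
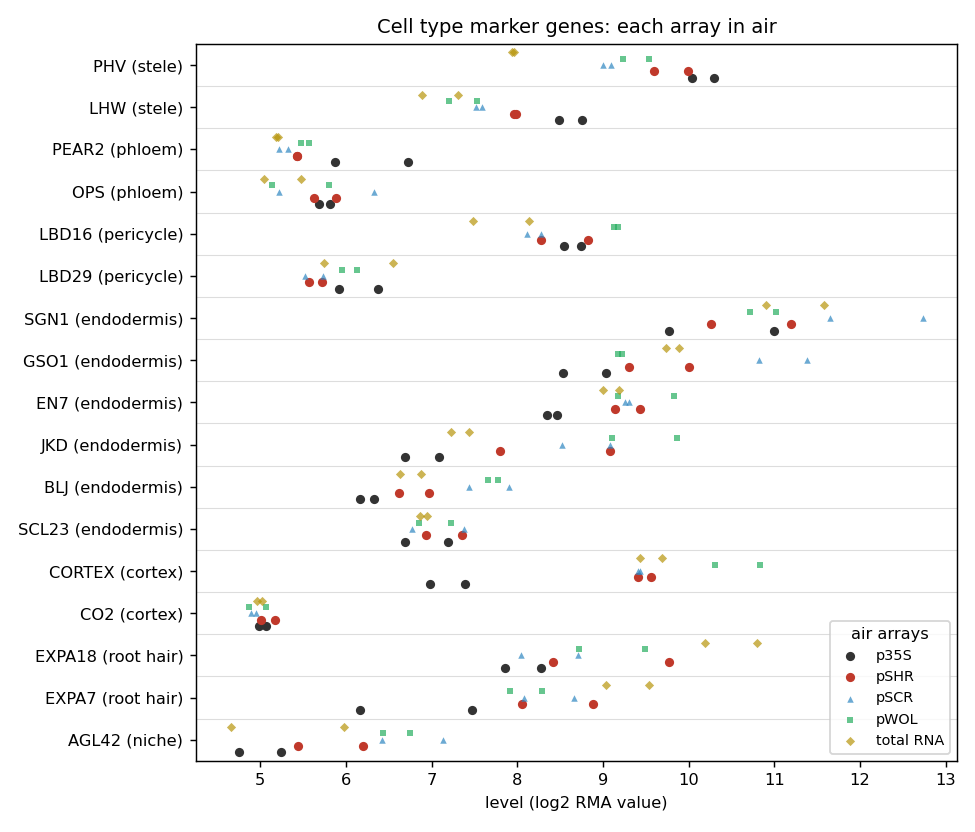
Level of the 17 measured cell type markers (log2 RMA value, horizontal) on each air array, 2 arrays a line, with pSHR in red and p35S in black and the other RNA sources as small symbols. AT1G09750, labelled CORTEX, separates pSHR (9.40 and 9.56) from p35S (6.98 and 7.39), while the 6 stele, phloem and pericycle genes at the top do not lie higher in pSHR.

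Over the whole array, 298 probe sets (1.31% of those tested) were higher in pSHR than in p35S and 271 (1.19%) were lower at an adjusted p below 0.05. Of these calls, 275 and 224 differed by at least 1 log2 unit. The call uses limma with a spread estimated from all 20 arrays and Benjamini-Hochberg adjustment. A single gene is listed for 151 of the higher and 136 of the lower probe sets, and only those are named. The called genes were brighter at the median: the median level was 7.88 for the higher and 7.55 for the lower genes. For all genes matched to the TAIR10.1 gene table it was 6.16. Some called probe sets were dim: 552 of the 569 lay outside the dimmest 25% of probe sets. Pseudogenes made up 2% and 0% of the called higher and lower genes against 7.36%. The median lengths of the higher and lower genes were 2386 and 2183.5 bp, close to the 2117 bp of all matched genes. The count depends on every array: 66 probe sets were called without p35S array 1, 114 without pSHR array 2, 189 without p35S array 2 and 298 without pSHR array 1. All 569 differences kept their sign in these 4 fits, and 14 of the higher and 23 of the lower probe sets kept their call in all of them. Where the pSHR and p35S arrays do not overlap, leaving out 1 array cannot turn the sign, so a kept sign says little about stability. With the 4 arrays alone, which leave 2 residual degrees of freedom, limma called no probe set, and 3673 had an unadjusted p below 0.05 there, against 3609 in the fit of all arrays.

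The largest differences were decreases. The 12 lower genes named by size fell by 6.63-fold to 16.0-fold, and they were chosen among genes whose pSHR and p35S arrays do not overlap, as is the case for 44.5% of all probe sets. The gene with the largest decrease was AT3G49190, which encodes an acyltransferase of the wax ester synthase type. It read 8.48 and 7.86 in pSHR and 12.12 and 12.22 in p35S (-4.00 ± 0.37, limma adjusted p = 0.000399). The pSCR arrays (8.94 and 9.87), the pWOL arrays (8.90 and 8.36) and total RNA (9.38 and 10.13) all lay below p35S as well. The call held whichever of the 4 arrays was left out.

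A run of neighbouring lectin genes fell with it. AT1G52050, AT1G52060 and AT1G52070 have consecutive locus codes and encode jacalin-related lectins, a plant family of carbohydrate-binding proteins. AT1G52070 read 8.28 on both pSHR arrays and 11.76 and 12.14 on the p35S arrays (-3.67 ± 0.38, limma adjusted p = 0.000855). AT1G52050 read 7.70 and 7.21 against 10.58 and 11.53 (-3.60 ± 0.56, limma adjusted p = 0.00707). AT1G52060 read 8.99 and 8.35 against 12.30 and 12.17 (-3.57 ± 0.52, limma adjusted p = 0.00518). The 3 genes thus stood about equally far below p35S, each with a probe set of its own, and the array cannot show how far near-identical copies share signal. Among the 10 measured genes from AT1G52000 to AT1G52140, a window picked with these values in view, these 3 were the only ones called. They make up 30% of the window, against 1.19% of all probe sets called lower. The next member by size, AT1G52140, read 6.01 and 6.64 against 7.45 and 7.51 (-1.16, limma adjusted p = 0.143), and the jacalin-related AT1G52000 and AT1G52100 differed by 0.13 and -0.13. Another 4 measured genes carry a jacalin lectin name in the gene table, and they differed by -0.08 to 0.98 with no call. Without pSHR array 2 or p35S array 2 the call of AT1G52050 was lost, and without p35S array 1 that of AT1G52060, which leaves 2 of the 3 calls in each of those fits; that of AT1G52070 held in all 4.

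The other 7 large decreases were the following. AT4G27400 and AT5G54370, which are annotated as late embryogenesis abundant-related proteins, fell by 3.14 and 2.82 log2 units. AT4G27400 read 7.12 and 6.92 in pSHR and 9.58 and 10.75 in p35S. AT5G54370 read 9.83 and 9.16 against 11.77 and 12.86. AT1G50060, a member of the CAP family to which pathogenesis-related protein 1 belongs, read 6.35 and 5.60 against 8.25 and 9.16 (-2.73 ± 0.61, limma adjusted p = 0.0333). AT3G06460, related to the ELO fatty acid elongases, fell by 2.89, and AT2G37540, a short-chain dehydrogenase, fell by 3.03. AT3G61930 (7.01 and 7.22 against 10.32 and 9.77) and AT4G22640 (5.37 and 5.83 against 8.40 and 8.48) completed the list, and their calls held in all 4 fits that left out an array. For AT1G50060 and AT5G54370 the call was lost in each of those 4 fits, with differences between -3.18 and -2.27 for AT1G50060 and between -3.37 and -2.27 for AT5G54370. In 10 of the 12 genes both p35S arrays lay above all 8 other air arrays, those of total RNA from the p35S lysates included, while both pSHR arrays lay below all others in 1, BPC1. For those 10 genes p35S, and not pSHR, was the source that stood apart in level, and p35S was one side of the choice of the genes. How often p35S is the extreme source over all probe sets was not counted. Of the 12 genes, 8 remained called without p35S array 1, 6 without p35S array 2, 10 without pSHR array 1 and 6 without pSHR array 2.

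**Figure D2:**
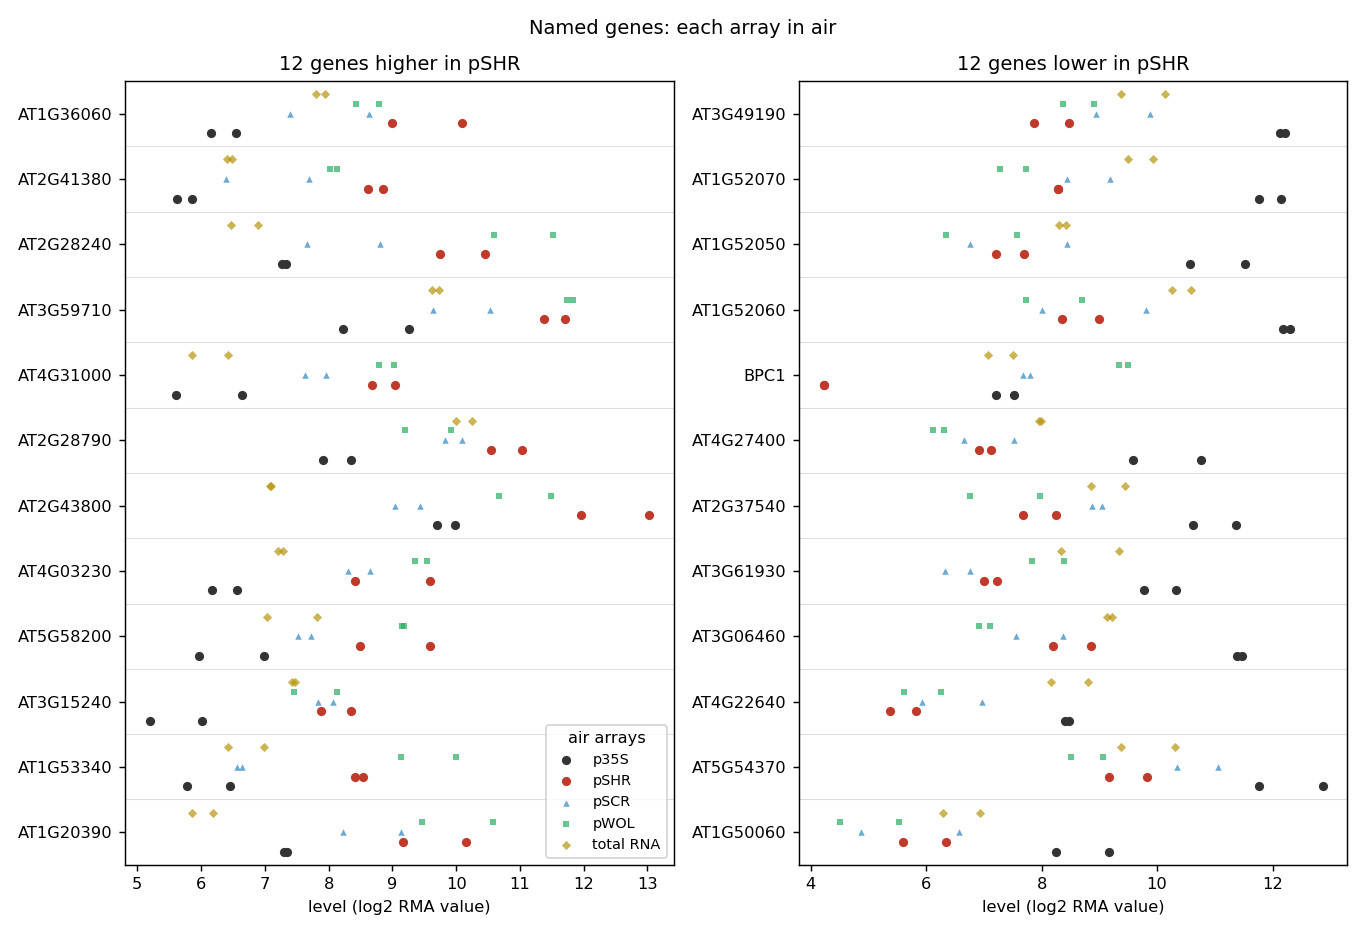
Level (log2 RMA value) of the 12 genes with the largest increase (left) and the 12 with the largest decrease (right) among called single-gene probe sets, on each air array. The genes were chosen with no overlap of the red pSHR and black p35S points. In AT3G49190 pSHR read 8.48 and 7.86 against 12.12 and 12.22 in p35S, and of the 12 lower genes BPC1 alone has pSHR at 4.23 with every other RNA source above 7.

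One decrease set the pSHR line apart from every other RNA source. BPC1 (BASIC PENTACYSTEINE1, AT2G01930) encodes a transcription factor that binds GA-rich promoter repeats. It read 4.23 on both pSHR arrays in air, where 7.98% and 7.65% of probe sets were dimmer, and 7.53 and 7.21 in p35S, where 65.5% and 59.8% were dimmer. The difference was -3.14 ± 0.26, an 8.83-fold decrease of RMA values (limma adjusted p = 0.000168), the smallest adjusted p of the comparison. A level this near the bottom of the array has no separate detection call here, so the size of this and the other BPC1 differences rests on where RMA placed it. Total RNA read 7.51 and 7.07, pSCR 7.80 and 7.67, and pWOL 9.33 and 9.49. After hypoxia pSHR read 4.46 and 4.23 and p35S 6.87 and 7.69 (-2.94, limma adjusted p = 0.000383). All 4 pSHR arrays of the study thus lay between 4.23 and 4.46, below the 16 others, which ran from 6.87 to 9.49.

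BPC1 was called lower in pSHR also against pWOL (-5.19, limma adjusted p = 6.01e-07) and against pSCR (-3.51, limma adjusted p = 7.40e-05), comparisons that share the pSHR arrays. Its neighbours by locus code did not pass the test in the comparison with p35S. AT2G01910 (ATMAP65-6, a microtubule-associated protein) read 9.95 and 9.69 against 10.54 and 10.15 (-0.52 ± 0.36, limma adjusted p = 0.569). AT2G01900 read 4.71 and 4.89 against 5.98 and 5.38 (-0.88, limma adjusted p = 0.0744), and AT2G01920 and TET14 differed by -0.08 and 0.08. These are the genes measured from AT2G01900 to AT2G01960, 5 with BPC1, a window picked with the values in view. The call of BPC1 held in all 11 alternatives other than the 4 arrays alone, with differences from -3.30 to -2.98.

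**Figure D3:**
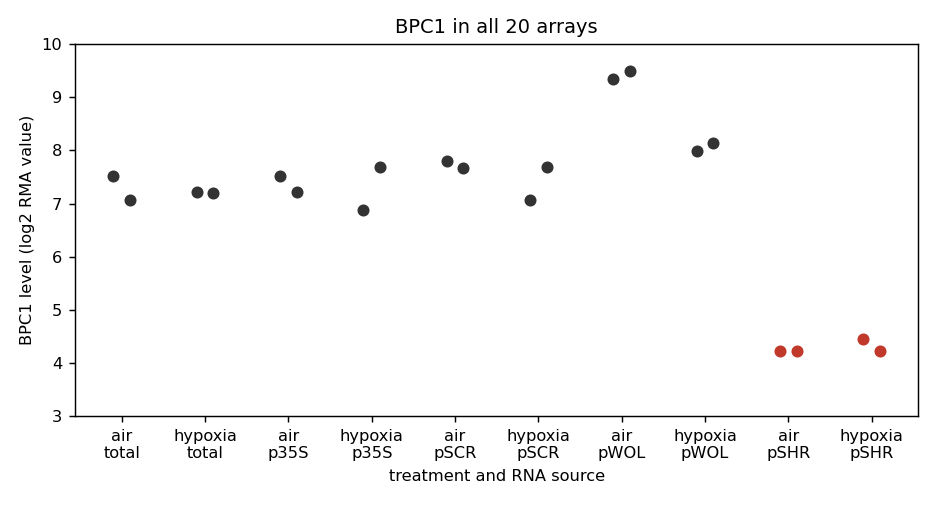
Level of BPC1 (log2 RMA value, vertical, axis from 3 to 10) on each of the 20 arrays, 2 points for each treatment and RNA source. The 4 pSHR points lie at 4.23 to 4.46 and the 16 others at 6.87 to 9.49.

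The 12 genes with the largest increase rose by 5.03-fold to 9.11-fold. AT1G36060, an AP2/ERF-type transcription factor, led them with 8.99 and 10.09 in pSHR and 6.16 and 6.54 in p35S (3.19 ± 0.54, limma adjusted p = 0.0103). AT1G36070, with the next locus code, rose by 1.54. AT2G41380, a methyltransferase-like gene, read 8.61 and 8.85 against 5.63 and 5.85 (2.99 ± 0.38, limma adjusted p = 0.00352). AT2G43800 encodes a formin, a protein that nucleates actin filaments, and read 11.96 and 13.02 against 9.98 and 9.69 (2.66 ± 0.36, limma adjusted p = 0.00382). Its pSHR arrays were the highest of all air arrays: pWOL read 10.67 and 11.49, pSCR 9.43 and 9.05, and total RNA 7.08 and 7.10. Against pSCR it was also called (3.26, limma adjusted p = 0.00168), and against pWOL it was not (1.41, limma adjusted p = 0.0614).

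The remaining increases began with a kinase. AT4G03230, a lectin-type receptor kinase, read 8.41 and 9.59 in pSHR and 6.16 and 6.56 in p35S (2.64 ± 0.31, limma adjusted p = 0.00166). AT4G31000, a calmodulin-binding protein, read 8.67 and 9.05 against 5.60 and 6.64 (2.74 ± 0.37, limma adjusted p = 0.00377). AT2G28790, an osmotin-like protein, read 10.55 and 11.03 against 7.91 and 8.36 (2.66 ± 0.35, limma adjusted p = 0.00355). AT3G15240, for which no role is given here, rose by 2.51 (7.87 and 8.36 against 5.20 and 6.01). The rest of the list was AT2G28240 (2.80), AT3G59710 (2.80), AT5G58200 (2.56), AT1G53340 (2.36) and AT1G20390 (2.33), the last of which the gene table lists as a pseudogene. In 7 of the 12 both p35S arrays lay below all 8 other air arrays, and in 4 both pSHR arrays lay above all others: AT1G36060, AT2G41380, AT2G28790 and AT2G43800. The genes were chosen by pSHR and p35S values, and the same shares over all probe sets were not counted. Calls of 6 of the 12 remained without p35S array 1, 9 without p35S array 2, 12 without pSHR array 1 and 7 without pSHR array 2. The 6 that held in all 4 fits were AT2G41380, AT4G31000, AT2G28790, AT2G43800, AT4G03230 and AT3G15240.

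Few probe sets were called higher or lower in pSHR against all 3 other lines. Such a call is stricter than the highest or lowest level, which was not counted over all probe sets. AT2G43800, for example, had the highest pSHR arrays in air and was not called against pWOL. Against pWOL in air 449 probe sets were called (1.97%) and against pSCR 721 (3.17%; 412 higher and 309 lower, or 335 and 450 with arrays centred on their medians), and 6 probe sets were called higher and 2 lower in all 3 comparisons, which share the pSHR arrays. Single arrays move these counts: without pSHR array 1 the pWOL count was 1, without pSHR array 2 the pSCR count was 49, and the range over the arrays compared was 1 to 676 and 49 to 648. Called against all 3 lines were 0 higher probe sets without pSHR array 1, pWOL array 1 or pWOL array 2, 1 without p35S array 1 or pSCR array 1, 3 without pSHR array 2, and 1 lower without any one of the 8 air arrays of the 4 lines other than pSHR array 2. Those with a single listed gene were 3 higher and 2 lower. XTH26, a xyloglucan endotransglucosylase/hydrolase, read 6.73 and 5.96 in pSHR, 4.74 and 5.17 in p35S, 4.57 and 5.02 in pSCR and 5.02 and 5.15 in pWOL. Its total RNA level was 6.44 and 6.17, so total RNA lay within the range of pSHR. AT1G04650 read 6.44 and 5.90 in pSHR and between 4.67 and 5.02 on the 6 arrays of the other lines. AT4G17430 read 7.17 and 7.12 in pSHR and between 6.07 and 6.46 there. AT5G55560, a kinase-like gene, was low with BPC1 at 5.70 and 5.49 against 6.20 to 6.95 in the other lines, and total RNA was lower still at 5.14 and 5.26. The calls of AT4G17430 and AT5G55560 against p35S (0.80 and -0.66) were lost without any one of the 4 arrays. XTH26 lost its call without p35S array 1 (1.17) or pSHR array 1 (1.00), and AT1G04650 without p35S array 2 or pSHR array 1.

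Gene families were next read member by member, and their membership was settled after values had been seen. The first was a family of thiol redox proteins. The CC-type glutaredoxins, also called ROXY proteins, are small plant-specific oxidoreductases that work with TGA transcription factors. Of 21 genes 17 were measured, 4 were called lower (23.5%, against 1.19% of all probe sets) and none higher, and the family median was -0.07. ROXY2 read 5.79 and 6.60 in pSHR and 8.76 and 7.58 in p35S (-1.97 ± 0.36, limma adjusted p = 0.0136). AT1G06830 read 5.63 and 6.42 against 8.48 and 8.05 (-2.24 ± 0.35, limma adjusted p = 0.00715). AT3G62930 read 4.11 and 4.28 against 5.62 and 5.65 (-1.44, limma adjusted p = 0.0102), and AT2G30540 read 5.41 and 5.38 against 6.71 and 6.23 (-1.08, limma adjusted p = 0.0139). As for BPC1, the pSHR level of AT3G62930 lay near the bottom of the array, so the size of its difference rests on where RMA placed it. In each of the 4 the groups did not overlap, as in 44.5% of all probe sets, and each was also called lower in the hypoxia arrays, by 1.39, 2.22, 1.06 and 0.92 in the same order. The other 13 members were not called, and ROXY1 lay the other way at 6.50 and 6.57 against 5.64 and 5.38 (1.02, limma adjusted p = 0.122). The number of calls was 0 without p35S array 1, 3 without p35S array 2, 1 without pSHR array 1 and 2 without pSHR array 2.

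Class III peroxidases are secreted heme enzymes that form or loosen cell wall polymers with hydrogen peroxide. Of 73 genes 55 were measured, 5 were called lower (9.09%, against 1.19% of all probe sets) and none higher, while the family median was 0.09. AT5G24070 read 5.49 and 5.55 in pSHR and 7.28 and 7.93 in p35S (-2.09 ± 0.24, limma adjusted p = 0.00166). AT4G33420 read 8.88 and 8.99 against 10.33 and 10.77 (-1.62 ± 0.22, limma adjusted p = 0.00355). AT2G41480, AT2G43480 and AT4G08780 fell by 1.66, 1.64 and 1.23. At the other end of the family, AT1G34510, AT3G49960 and AT1G30870 differed by 1.81, 1.62 and 1.40 without passing the test (limma adjusted p = 0.125, 0.189 and 0.237). AT5G24070 and AT4G33420 kept their call in all 4 fits that left out an array; of the 5, 2 were called without p35S array 1, 3 without p35S array 2, 4 without pSHR array 1 and 3 without pSHR array 2.

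GH3 enzymes join amino acids to auxin, jasmonate and other acyl acids. Of 20 genes 12 were measured, and 2 fell (16.7%, against 1.19% of all probe sets). AT5G51470 read 5.66 and 5.07 in pSHR and 7.48 and 8.03 in p35S (-2.39 ± 0.33, limma adjusted p = 0.00383). AT1G23160 read 6.72 and 6.14 against 8.04 and 9.14 (-2.16 ± 0.36, limma adjusted p = 0.00947). For AT5G51470 the pSCR arrays (6.26 and 5.26) and pWOL arrays (5.60 and 6.04) also lay below both p35S arrays. Without pSHR array 2 or p35S array 2 the call of AT1G23160 was lost, at -1.86 and -1.60. In hypoxia the 2 genes differed by -0.23 and -0.47 and neither passed the test.

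Few enzymes of sulfur assimilation could be read, and most of those fell. Plants take sulfate through ATP sulfurylase, APS reductase and sulfite reductase to sulfide, which goes into cysteine and glutathione. Of 30 genes of uptake, assimilation and glutathione metabolism 5 were measured, all 5 lay below p35S, and 3 were called lower, against 1.19% of all probe sets. SIR, the sulfite reductase, read 9.08 and 9.02 in pSHR and 10.33 and 10.67 in p35S (-1.45 ± 0.26, limma adjusted p = 0.0139). APS3, an ATP sulfurylase, read 8.32 and 8.17 against 9.52 and 9.65 (-1.33 ± 0.27, limma adjusted p = 0.0236). GR, a plastid glutathione reductase, read 8.51 and 8.76 against 9.46 and 9.82 (-1.01 ± 0.21, limma adjusted p = 0.0257). The groups did not overlap in any of these, as in 44.5% of all probe sets, while APS4 (-0.51) and GR1 (-0.63) did not pass the test. All 3 calls were lost when any one of the 4 arrays was left out, at differences from -1.63 to -0.83. In hypoxia SIR read 9.95 and 9.67 against 9.56 and 9.01, GR differed by -0.02 and APS3 by -0.89, and none of the 3 was called. For SIR the change of the difference between air and hypoxia was 1.97 (limma adjusted p = 0.111).

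BCAT4 and GSTU23 are not in that list and are given here because they were called. BCAT4, an aminotransferase that starts the methionine chain elongation of aliphatic glucosinolates, read 9.51 and 10.44 in pSHR and 11.95 and 11.50 in p35S (-1.75 ± 0.32, limma adjusted p = 0.0148). GSTU23, a glutathione transferase, read 7.44 and 7.85 against 9.24 and 9.40 (-1.67 ± 0.26, limma adjusted p = 0.00715). It was the only called member of 12 measured glutathione transferases (8.33%, against 1.19% of all probe sets called lower). Both were also called lower in hypoxia (-2.11 and -1.36). BCAT4 kept its call in 2 and GSTU23 in 3 of the 4 fits that left out an array.

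Glycosyltransferases and wall-modifying enzymes had calls on the higher side. Of 43 measured UDP-glycosyltransferases, which attach sugars to hormones and secondary metabolites, 3 were called higher (6.98%, against 1.31% of all probe sets) and none lower, with a median of 0.09. UGT76C2, a cytokinin glucosyltransferase, read 8.21 and 8.43 in pSHR and 7.02 and 7.24 in p35S (1.19 ± 0.24, limma adjusted p = 0.0227). UGT76D1 read 7.67 and 8.02 against 6.04 and 6.25 (1.69, limma adjusted p = 0.0128), and UGT73D1 read 6.28 and 7.55 against 5.15 and 5.52 (1.58, limma adjusted p = 0.0377). IAGLU, an auxin glucosyltransferase not counted in that family by its name, read 9.46 and 9.58 against 8.50 and 8.06 (1.24, limma adjusted p = 0.0150). The difference of UGT73D1 fell to 0.95 without pSHR array 2. Without pSHR array 1 UGT76D1 and UGT73D1 kept their calls and UGT76C2 did not (limma adjusted p = 0.0534). None of the 3 kept it without p35S array 1, p35S array 2 or pSHR array 2, and IAGLU lost its call in all 4 fits.

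Among wall enzymes, 2 of 10 measured xyloglucan endotransglucosylase/hydrolases were called higher (20%, against 1.31% of all probe sets), XTH26 as given above and XTH21. The family median was 0.17, with 6 members above p35S and 4 below it, the lowest at -1.004. XTH21 read 7.51 and 7.24 in pSHR and 5.27 and 5.41 in p35S (2.03 ± 0.34, limma adjusted p = 0.00947). TBL32, a xylan acetyltransferase, read 8.38 and 9.78 against 6.93 and 6.87 (2.18 ± 0.44, limma adjusted p = 0.0227). THE1 (THESEUS1), a receptor kinase that monitors the wall, read 9.35 and 9.16 against 7.85 and 7.90 (1.38 ± 0.31, limma adjusted p = 0.0340). Its groups did not overlap, and it was also called in hypoxia (1.35). Expansins, which loosen walls, went both ways: of 19 measured, 10 lay above and 9 below p35S. EXPB3 alone was called (5.26%, against 1.19% of all probe sets called lower). It fell from 10.24 and 10.87 to 8.61 and 9.42 (-1.54 ± 0.34, limma adjusted p = 0.0322). GH9B8, an endoglucanase, fell by 1.14. XTH21 was called without p35S array 2 (adjusted p = 0.0457) and without pSHR array 2 (0.0480), TBL32 without pSHR array 1 (0.0120), EXPB3 without pSHR array 2 (0.0499), and THE1 and GH9B8 in none of the 4 fits.

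**Figure D4:**
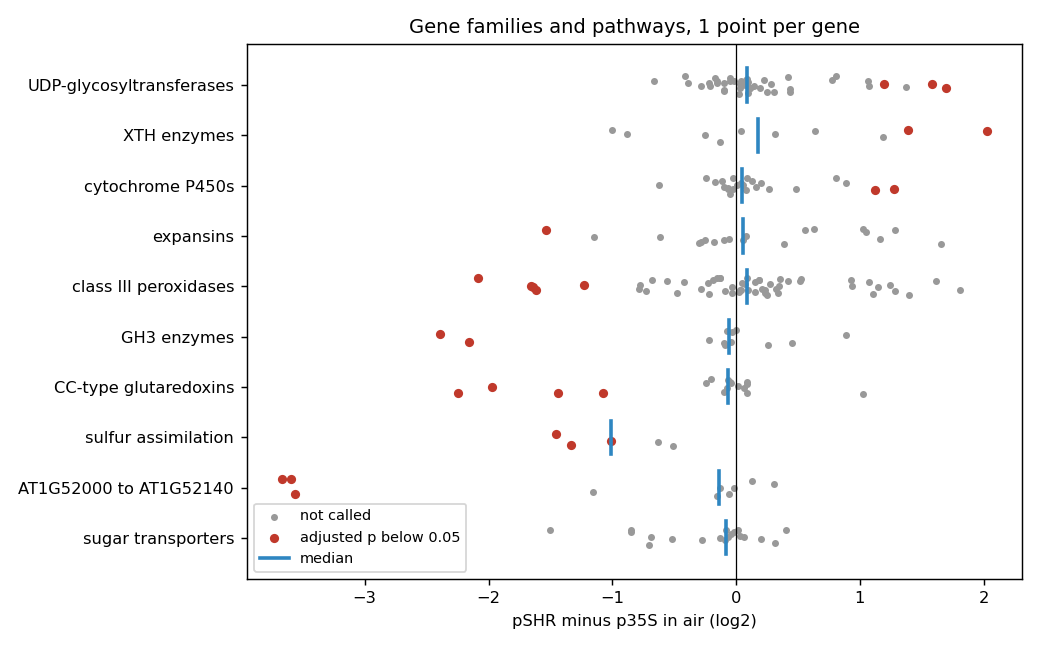
Difference of pSHR from p35S in air (log2, horizontal) for every measured gene of 10 families, pathways or windows, 1 point a gene, with called genes in red and the median as a blue bar. Called glutaredoxins, peroxidases, GH3 enzymes and sulfur assimilation genes lie below 0 and called UDP-glycosyltransferases and XTH enzymes above it, while the family medians, except that of sulfur assimilation (-1.01), lie near 0.

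Transcription factors and other genes with a symbol of their own added 23 higher and 21 lower calls in all, several of them named above. How many genes with a symbol were measured was not counted, so these calls cannot be set against the 1.31% and 1.19% of all probe sets. Of 22 measured genes with a bZIP name 3 were called higher and 1 lower, against 1.31% higher and 1.19% lower of all probe sets. Of these, bZIP52 (8.31 and 9.49 against 6.22 and 7.39), BZIP61 (7.15 and 7.38 against 5.10 and 6.57) and EEL (6.69 and 6.87 against 5.28 and 5.49) rose by 2.10, 1.42 and 1.39. The difference of BZIP61 was 0.69 without p35S array 1 and 2.16 without p35S array 2. In contrast bZIP19, a regulator of the zinc deficiency response, fell from 9.91 and 9.67 to 8.84 and 8.88 (-0.93 ± 0.20, limma adjusted p = 0.0260). ATMYC1, a bHLH factor of epidermal cell fate, rose by 1.13 (limma adjusted p = 0.0499). ATC, a relative of the flowering repressor TERMINAL FLOWER 1, read 10.75 and 10.72 in pSHR and 12.33 and 12.64 in p35S (-1.75 ± 0.30, limma adjusted p = 0.0109). PDF2.5, a defensin, read 8.12 and 8.69 against 6.11 and 6.26. It was the only call among 13 measured defensin-type peptides (7.69%, against 1.31% of all probe sets called higher). The cytochromes P450 CYP71B29 and CYP84A4 rose by 1.28 and 1.13, the 2 calls among 24 measured (8.33%). SLOMO, an F-box protein of leaf initiation, read 7.27 and 7.13 against 8.39 and 8.58 (-1.29 ± 0.19, limma adjusted p = 0.00510). Of these 44 calls 4 held without p35S array 1, 15 without p35S array 2, 15 without pSHR array 1 and 12 without pSHR array 2, and only BPC1 and SLOMO held in all 4 fits.

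Some groups showed no call at all. Of 69 measured plastid-encoded genes, 19 sugar transporters and 10 kinesins and tubulins, limma called none in either direction. With rates of 1.31% higher and 1.19% lower over the whole array, sets this small can lack calls, so their absence says little. At an unadjusted limma p below 0.05 were 6, 4 and 2 genes, against 3609 of the 22746 tested probe sets. The group medians were 0.12, -0.08 and -0.34. Of the plastid-encoded genes, 48 lay above and 21 below p35S, with differences from -0.545 to 2.51. Of the sugar transporters, SWEET13 lay lowest at -1.50 (limma adjusted p = 0.187). Of the cytoskeletal genes, TUA1 lay lowest at -1.13 (limma adjusted p = 0.0915).

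The hypoxia arrays of the same lines give the comparison again with other arrays, under a different treatment. Both comparisons use the same spread estimate for a probe set, so a small spread favours a call in both. There 391 probe sets (1.72%) were called higher in pSHR than in p35S and 470 (2.07%) lower. That total of 861 moved to 434 without p35S array 1 of hypoxia, 406 without p35S array 2, 1343 without pSHR array 1 and 80 without pSHR array 2, and array weights gave 270. Of the 298 probe sets higher in air 98 were called higher in hypoxia too (32.9% of the air list, 25.1% of the hypoxia list), and 269 (90.3%) had the same sign, against 47.7% of all probe sets above 0 there. Of the 271 lower ones 82 were called lower in hypoxia (30.3% and 17.4%), and 222 (81.9%) had the same sign, against 52.3% of all below 0. Without pSHR array 2 of hypoxia 12 of the higher and 21 of the lower probe sets were called there, and without p35S array 1 of hypoxia 29 and 44. None was called in the opposite direction in the fit of all arrays. The median difference of the higher probe sets was 1.49 in air and 0.86 in hypoxia, and that of the lower ones -1.30 and -0.58; they were chosen by the air values, which are therefore the more extreme.

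**Figure D5:**
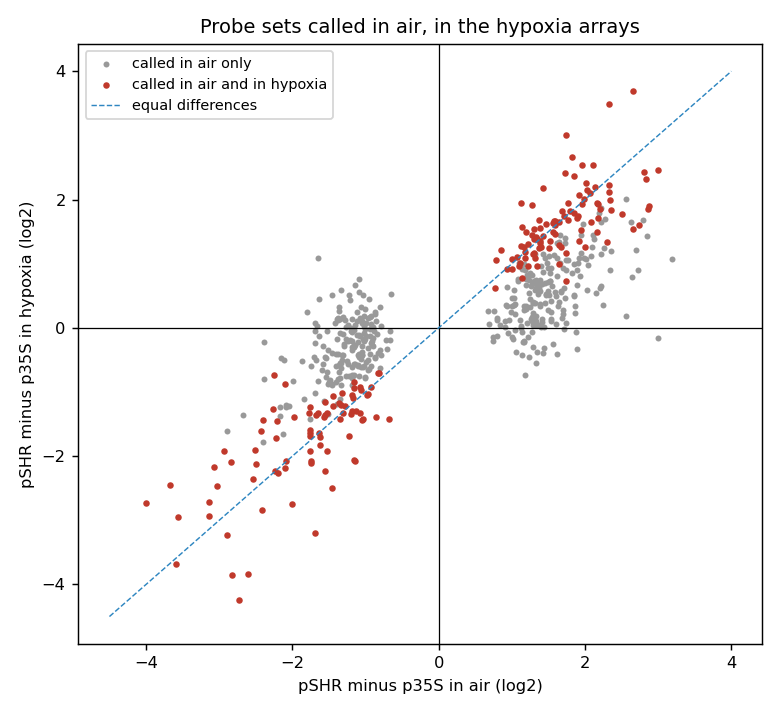
Difference of pSHR from p35S in hypoxia (vertical, log2) against that in air (horizontal, log2) for the 569 probe sets called in air, 1 point each, with those also called in hypoxia in red and equal differences on the dashed line. Most points keep their sign (269 of 298 on the right, 222 of 271 on the left), and most lie nearer to 0 in hypoxia.

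Named genes followed the air list to different degrees. Of the 12 with the largest decrease 11 were called in hypoxia, and all 12 were below p35S. AT1G50060 read 5.85 and 4.44 in pSHR and 9.45 and 9.32 in p35S (-4.24, limma adjusted p = 0.00465), and AT3G06460 (-1.61, limma adjusted p = 0.133) was the one not called. Of the 12 with the largest increase 6 were called. The formin AT2G43800 read 12.33 and 13.10 against 9.06 and 8.99 (3.69, limma adjusted p = 0.000778). AT2G41380 showed no such difference in hypoxia: its pSHR arrays read 6.34 and 5.67 there, down from 8.61 and 8.85 in air, and its p35S arrays read 5.97 and 6.35 (-0.15, limma adjusted p = 0.901). Its change between treatments had an adjusted p of 0.111. The change of the line difference between air and hypoxia was tested directly over all probe sets with limma, and none passed, with a smallest adjusted p of 0.0591 and 2291 probe sets at an unadjusted p below 0.05. Trended robust moderation called 7, and leaving out 1 array called up to 55, the number without pSHR array 1 of hypoxia (11 without p35S array 1 of hypoxia and 6 without pSHR array 1 of air). A standard error of 0.37 log2 units at the median, against 0.26 for each line difference, limits that test.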

How the data were processed

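The deposited log2 values of 22810 probe sets on 20 arrays were used as given; RMA and affy are named in the submitters' processing notes, and their versions are not given here. RMA compresses small values, so folds of dim transcripts are understated, and the number of arrays limits the precision. The 64 control probe sets were left out. Probe sets were named from the platform annotation (13513 with 1 gene, 503 with several, 8730 unnamed here), with 13436 matched to the TAIR10.1 gene table; the probe set of highest mean stood for a gene in lists. Sequences and coordinates were not used here.

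Differences were computed with limma 3.58.1 in R 4.3.3: 10 group means on all 20 arrays, 10 residual degrees of freedom, empirical Bayes moderation (prior 3.30) and Benjamini-Hochberg adjustment over 22746 probe sets; a call is an adjusted p below 0.05. A run on simulated data drew independent noise of the fitted spread. It therefore cannot show how shared lysates or technical replicates affect the calls, and its outcome is not used here. The labels do not say that the 2 arrays of a group came from separate cultures, so p-values measure the spread between arrays, which may be technical.

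Members and lists were chosen with earlier results of these data known. Named were the 12 called genes with the largest difference in each direction and no overlap of arrays, up to 6 in each direction called against all 3 other lines, and list members. Families were gathered from gene names because the table holds no descriptions. The peroxidase, GH3, glutaredoxin and sulfur lists, the 2 windows of loci and the genes with symbols were picked with their values in view. Roles of genes known by locus code are general knowledge, not from the tables. Deviations of same-numbered arrays correlated at -0.06 for pSHR and p35S in air and at 0.29 for pSHR in air and hypoxia; with 2 arrays a group, numbers were not treated as pairs.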

Additional observations from a re-analysis of the deposited data

How the results depend on the processing

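None of the 569 differences called in air changed sign under the scalings or with 1 array left out. Leaving out 1 array cannot turn a sign where the pSHR and p35S arrays do not overlap. The replicate block, the lysate block, moderation, weights and leaving out the dimmest 25% (552 of the 569 tested) do not alter the difference of the group means. No sign could turn in those settings, so they bear only on the calls. Of 17 markers OPS alone turned under quantile normalization and centring, from 0.0029 to -0.019 and -0.014. The counts of probe sets higher and lower in air stayed within 1.5 times of 298 and 271 under the replicate block (283 and 265), the shared lysate block, quantile normalization, arrays centred on medians, trended robust moderation, array weights and without the dimmest 25% of probe sets. The 4 compared arrays alone gave 0 and 0, and likewise 0 calls for hypoxia, for the change and for pSCR, and 1 for pWOL, with 2 residual degrees of freedom (4 for the change). Leaving out 1 array gave 19 to 188 higher and 47 to 110 lower probe sets in air, 80 to 1343 calls for hypoxia (861 in full), 0 to 55 for the change of the difference (0 in full), 1 to 676 for pWOL (449 in full) and 49 to 648 for pSCR (721 in full). Without pSHR array 1 the pWOL count was 1, and without pSHR array 2 it was 676. Array weights gave 270 calls in hypoxia, and trended robust moderation gave 7 for the change; the causes were not tested. The samples share only a number, and the replicate block called 782 probe sets in hypoxia, 0 for the change, 462 for pWOL and 734 for pSCR. A lone array is assumed to vary like the other groups.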
